A study of Bos taurus with 15 samples.

Results

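Collagens are the structural proteins of the extracellular matrix, and 43 genes for collagen chains were followed here in the endometrium, the lining of the uterus, of 15 heifers (Bos taurus). The members are the 43 of 32671 entries of the deposited table whose symbol has the form of a collagen chain (COL, type number, A, chain number). They comprise 11 chains of fibrillar collagens, 6 of the basement membrane network (type IV) and 26 of other types. Biopsies were taken on day 14 of pregnancy from 5 High-fertile, 5 Sub-fertile and 5 Infertile heifers. Every heifer, whatever its class, had its cycle synchronised with prostaglandin F, GnRH, a progesterone-releasing vaginal insert (CIDR), estradiol and progesterone, and received an in vivo-produced embryo on day 7, per the labels' protocols. The tissue was taken with biopsy forceps after the uterus had been flushed, from the horn on the side of the corpus luteum. The sources used here do not state how the classes were assigned, nor the breed or age of the animals.

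As background, a collagen molecule is a helix of alpha chains, which are hydroxylated and folded in the endoplasmic reticulum, secreted, trimmed by proteases and cross-linked by lysyl oxidases. Types I and III form the thick and fine fibrils of connective tissue, with type V inside the fibrils, while type IV forms the sheet on which epithelium, endothelium and smooth muscle cells rest, and type VI forms beaded filaments around cells. In the endometrium the fibrils lie in the stroma around the glands, and the bovine conceptus elongates and attaches next to this stroma. The comparisons ask whether the matrix transcripts of heifers of lower fertility differ from those of High-fertile heifers at this stage.

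The libraries held 38017136 to 62858724 counted reads each (40542008 to 56164970 High-fertile, 38017136 to 62858724 Sub-fertile and 40061511 to 51009815 Infertile), and each came from 1 heifer. They were cut into 3 sets, of 8, 5 and 2, by clustering on the counts of 362 genes described as pseudogenes or ribosomal RNA, without use of the class. The number of sets was imposed. The 5-library set held 3 Sub-fertile libraries (replicates 1, 2 and 5) together with replicates 3 and 5 of the Infertile class, the 2-library set held High-fertile replicate 1 and Infertile replicate 2, and the 8-library set held the other 4 High-fertile, 2 Sub-fertile and 2 Infertile libraries. With no High-fertile library in the 5-library set, class and set overlap and cannot be fully told apart, and the labels name no batch. All 6 stromal and all 5 epithelial marker genes were detected in every library, whereas TKDP1, a bovine trophoblast gene, had 0 counts in all 15 libraries, which allows a level of up to 0.0492 to 0.0783 CPM by library (a limit of 3 counts, counting error only). The other listed trophoblast genes found, IFNT2 and PAG1, were not absent. With them the list summed to 4.10 to 13.7 CPM in High-fertile, 3.30 to 8.22 CPM in Sub-fertile and 3.58 to 24.4 CPM in Infertile libraries. The highest sums were 24.4, 13.7 and 10.8 CPM, in Infertile replicate 1 and High-fertile replicates 1 and 2. The same libraries held the highest sums of 8 smooth muscle genes (23520.2, 11398 and 8905 CPM). Whether the IFNT2 and PAG1 counts came from trophoblast cells was not tested. Replicates are numbered within a class in the order of deposit, values for 5 libraries are listed in that order, and the numbers pair no animals.

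Types I and III dominated the collagen transcripts of these biopsies. Per unit of gene length, as the deposited FPKM (fragments per kilobase of gene, scaled to sequencing depth), COL3A1, the chain of type III collagen, was highest with a mean of 1498 over 15 libraries (range 658 to 3504). COL1A2 and COL1A1, which together build type I, followed at 762 (317 to 1877) and 398 (103 to 1173). These 3 chains made up 65.9% of the summed mean FPKM of all 43 members. Next came the type VI chains COL6A1 at 362 and COL6A2 at 193, the type IV chain COL4A1 at 116 and COL18A1, the source of the fragment endostatin, at 104. In all, 7 members had a mean FPKM over 100, 11 lay between 10 and 100, 14 between 1 and 10, and 11 below 1.

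The least abundant members were chains known from cartilage, epithelium and other tissues. COL10A1, of hypertrophic cartilage, had 2 to 14 counts per library and was the 1 member that did not pass the filter on low counts, so 42 members were tested. COL19A1 (0 to 30 counts), COL9A1 (1 to 20) and COL20A1 (6 to 32) passed it at very low levels. COL17A1, a transmembrane collagen of epithelial cells that rest on a basement membrane, had 2 to 448 counts, and the upper value belonged to a single heifer. The marker genes of cartilage summed to 3.12 to 8.24 CPM (counts scaled to library size, with TMM factors) in 14 libraries and to 50.2 CPM in Infertile replicate 2, of which the link protein HAPLN1 made 36.6 CPM.

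**Figure D1:**
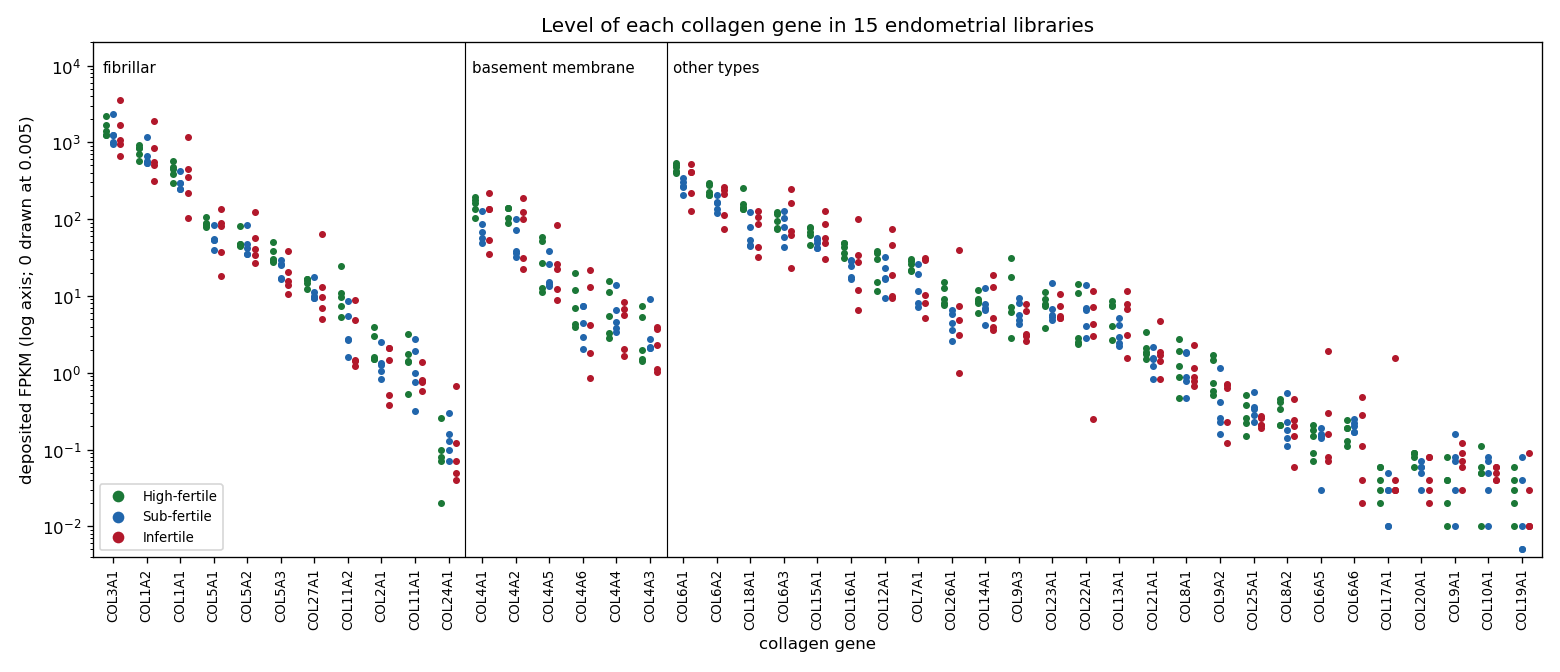
Deposited FPKM of each of the 43 collagen genes (log axis) in every library, 1 point per heifer and coloured by fertility class, ordered by level within fibrillar, basement membrane and other types. COL3A1 spans 658 to 3504 FPKM, and the classes overlap for most members.

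Collagens took 0.835% of all counts in Infertile replicate 5, the lowest share, and 4.87% in Infertile replicate 2, the highest. By class the share was 2.44% ± 0.400 (SD, n = 5) in High-fertile, 1.86% ± 0.518 (n = 5) in Sub-fertile and 2.30% ± 1.55 (n = 5) in Infertile heifers. The Infertile class thus held both extremes and spread the most. Of the 42 tested members, 17 had their highest CPM in Infertile replicate 2 and 25 had their lowest in Infertile replicate 5. Within the collagens, fibrillar chains made 56.1% of summed FPKM in Infertile replicate 1 and 81.6% in Sub-fertile replicate 1, and type IV chains 10.6% and 2.62% in the same libraries.

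Collagen transcripts varied more between heifers of a class than most transcripts did. Over the 37 members at a mean of 1 CPM or more, the median within-class SD of log2 CPM was 0.84, against 0.37 for all 16673 genes at that level. It was lowest for COL25A1, a transmembrane collagen of neurons, at 0.49 and highest for COL22A1, a collagen of tissue junctions, at 1.53. The highest library exceeded the lowest by 5.11-fold for COL3A1, 10.9-fold for COL1A1 and 59.5-fold for COL22A1 on the CPM scale.

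No collagen gene passed the threshold between fertility classes. The edgeR quasi-likelihood test with Benjamini-Hochberg adjustment over 19962 genes called 0 genes of any kind at an adjusted p under 0.05 in each comparison. At an unadjusted p under 0.05 were 2738 genes (13.7%) for Sub-fertile against High-fertile, 2201 (11.0%) for Infertile against High-fertile and 525 (2.63%) for Infertile against Sub-fertile. DESeq2 called 19, 34 and 11 genes, the edgeR likelihood ratio test 13, 8 and 8, and limma-voom 0, 1 and 1, with 0 collagen genes among them in each case. The following differences are therefore values with their spread, and none was called.

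Between Sub-fertile and High-fertile endometrium most collagen chains had the lower mean in Sub-fertile heifers. The fitted log2 fold change was below 0 for 36 of 42 members (85.7%), against 49.0% of all genes tested, and its median was -0.49 against 0.01 over all genes. The members were measured in the same heifers and are not independent, here and in the comparisons below. The median deviation of the members, taken per library, had a within-class SD of 0.49 log2 units. Basement membrane chains stood lowest (5 of 6 below 0, median -0.79), followed by other types (21 of 25, median -0.44) and fibrillar chains (10 of 11, median -0.42). At an unadjusted p under 0.05 were 6 members, all lower, or 14.3% beside 13.7% of all genes in either direction and 7.14% lower, so the share of members past that limit was close to that of all genes in either direction. In 4 members (9.52%) the highest Sub-fertile value was under the lowest High-fertile value, against 5.07% of all genes with ranges apart in either direction and 2.81% in this direction: COL18A1, COL6A1, COL16A1 and COL26A1. The smallest adjusted p among members was 0.360.

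The same difference was not the same size under every treatment of the library sets. With the set as a covariate the median of the 42 members was -0.03, with 1 member (COL18A1) at an unadjusted p under 0.05 beside 2.51% of all genes. Within the 8-library set alone, where 2 Sub-fertile and 4 High-fertile libraries remained, the median was -0.53, and 11 of 42 members (26.2%) were at an unadjusted p under 0.05, all lower, beside 7.43% of all genes. A fit to the 10 compared libraries gave 15 of the 39 members tested in it (23.4% of all genes), and leaving out Infertile replicate 5 gave 10 (17.1% of all genes). Of the 11 members in the 8-library set, 10, all but COL1A1, had both Sub-fertile libraries below all 4 High-fertile ones. These 11 were picked by their p in the same libraries, so this separation adds no support, and no share of all genes is given beside it.

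**Figure D2:**
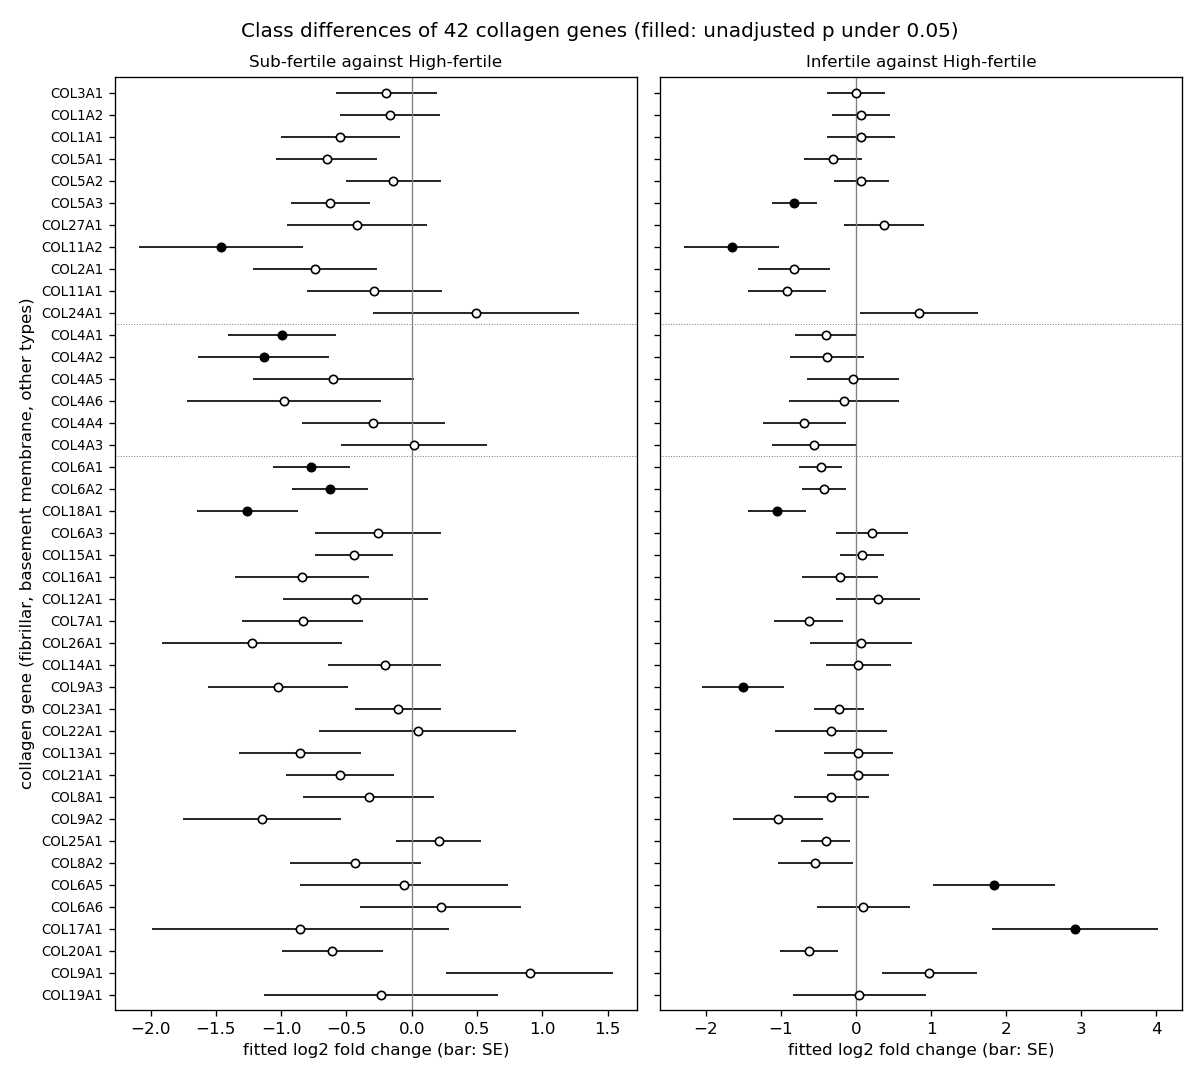
Fitted log2 fold change with its standard error for 42 tested collagen genes, Sub-fertile (left) and Infertile (right) against High-fertile; both comparisons share the High-fertile libraries. Filled points are members at an unadjusted p under 0.05, and 36 of the 42 points on the left and 24 on the right lie below 0.

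Among fibrillar chains, COL1A1, the alpha1 chain of type I, was at 2297, 1775, 2846, 2737 and 3357 CPM in High-fertile, 2476, 1422, 1679, 1829 and 1499.6 CPM in Sub-fertile and 2215, 6893, 1253, 2646 and 629.8 CPM in Infertile libraries. Infertile replicate 2 held the most and Infertile replicate 5 the least of all 15, and the 3 classes overlapped. The log2 fold change was -0.55 ± 0.46 (SE) for Sub-fertile and 0.07 ± 0.45 (SE) for Infertile against High-fertile. COL1A2, the alpha2 chain of type I, was at 3720.1 ± 662, 3317 ± 1279 and 3887 ± 2902 CPM (mean ± SD, n = 5) in the same order of classes, with fold changes of -0.17 ± 0.38 and 0.06 ± 0.38.

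COL3A1 was at 6689, 6672, 9028, 7696 and 11956 CPM in High-fertile, 12611, 6630.2, 5016, 5669 and 6806 CPM in Sub-fertile and 5449, 18627, 5581, 8823 and 3647 CPM in Infertile libraries. Sub-fertile replicate 1, above the highest High-fertile library, stood apart from the other 4 Sub-fertile libraries, of which 3 lay below all High-fertile ones. The fold changes against High-fertile were -0.19 ± 0.39 (SE) and 0.00 ± 0.39 (SE), both smaller than their standard errors. In the 8-library set alone COL3A1 had -0.74 (unadjusted p = 0.0467, edgeR adjusted p = 0.668) and COL1A1 -0.62 (unadjusted p = 0.0463, edgeR adjusted p = 0.668) for Sub-fertile against High-fertile. With all 15 libraries no type I or type III chain was at an unadjusted p under 0.05 in a pairwise comparison, whereas COL1A1 was for Infertile against Sub-fertile without Infertile replicate 5 (0.87, unadjusted p = 0.0387, edgeR adjusted p = 0.799) and for Sub-fertile against High-fertile with only the 10 compared libraries (-0.54, unadjusted p = 0.0202, edgeR adjusted p = 0.163).

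Type V chains, which sit inside type I fibrils and set their width, included COL5A1 and COL5A2 as the main pair. COL5A1 was at 583, 528, 609, 568 and 718 CPM in High-fertile, 565, 355, 341, 381 and 273 CPM in Sub-fertile and 631, 902, 244, 531 and 124 CPM in Infertile libraries. Of the Sub-fertile libraries replicate 1 alone reached the High-fertile range, and Infertile replicate 5 was the lowest of all libraries. Its fold change was -0.65 ± 0.39 (SE) for Sub-fertile against High-fertile, and COL5A2, the partner chain, had -0.14 ± 0.37 (SE). COL5A3, the remaining chain of type V, was at 179, 192, 323, 196 and 246 CPM in High-fertile and 107, 132, 87.3, 246 and 71.3 CPM in Infertile libraries, a fold change of -0.82 ± 0.30 (SE; unadjusted p = 0.0159, edgeR adjusted p = 0.439). All Infertile libraries except replicate 4 lay below all High-fertile ones.

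COL11A2, a type XI chain of fine fibrils best known from cartilage, was at 64.5, 35.7, 74.3, 163 and 49.9 CPM in High-fertile, 18.6, 17.2, 35.0, 59.0 and 10.9 CPM in Sub-fertile and 63.6, 9.38, 8.0, 31.9 and 10.1 CPM in Infertile libraries. High-fertile replicate 4 was far above the rest, while Sub-fertile replicate 4 and Infertile replicate 1 reached the High-fertile range. The fold changes were -1.46 ± 0.63 (SE; unadjusted p = 0.035, edgeR adjusted p = 0.360) for Sub-fertile and -1.66 ± 0.63 (SE; unadjusted p = 0.0196, edgeR adjusted p = 0.439) for Infertile against High-fertile. All 5 libraries of the 5-library set lay at 18.6 CPM or below, under all 8 libraries of the 8-library set. In the 8-library set alone the fold changes were -0.79 and -0.77 (unadjusted p = 0.252 and 0.263, edgeR adjusted p = 0.766 and 0.903), and with the set as a covariate -0.81 and -1.34.

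Among basement membrane chains, COL4A1 and COL4A2, the ubiquitous pair of type IV, were lowest in the 5-library set. COL4A1 was at 935, 796, 1027, 615 and 1124 CPM in High-fertile, 395, 326, 485, 762 and 289.9 CPM in Sub-fertile and 850.4, 1263, 304, 771 and 212 CPM in Infertile libraries. COL4A2 was at 834, 614, 826, 524 and 828 CPM in High-fertile, 223, 210.5, 416, 616 and 189 CPM in Sub-fertile and 779.8, 1090.5, 175, 587 and 135 CPM in Infertile libraries. For both chains the 5 lowest libraries were those of the 5-library set, and the Infertile class thereby covered a range wider than both other classes together. The fold change for Sub-fertile against High-fertile was -0.99 ± 0.41 (SE; unadjusted p = 0.0291, edgeR adjusted p = 0.360) for COL4A1 and -1.13 ± 0.50 (SE; unadjusted p = 0.0393, edgeR adjusted p = 0.360) for COL4A2. With the set as a covariate these values were -0.18 and -0.11, and in the 8-library set alone they were -0.52 and -0.45.

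Of all 42 tested members, 5 lay lower in every library of the 5-library set than in every library of the 8-library set, and 0 lay higher. They were COL4A1, COL4A2, COL18A1, COL11A2 and COL9A2, a type IX chain. Over all genes tested, 23.3% had ranges apart between these sets, 13.6% lower and 9.7% higher, so the members (5 of 42) did not exceed that background.

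The other type IV chains, described here after their values were seen, followed other orders. COL4A5 and COL4A6, the pair of smooth muscle and some epithelial basement membranes, were highest in Infertile replicate 1, at 571 and 156 CPM, with High-fertile replicates 1 (372 and 135 CPM) and 2 (329 and 81.6 CPM) among the next. COL4A3 and COL4A4, the chains known from the kidney filter, were instead highest in Sub-fertile replicate 3 (62.5 CPM) and High-fertile replicate 2 (111.9 CPM). Against High-fertile, COL4A5 had fold changes of -0.60 ± 0.62 (SE) for Sub-fertile and -0.03 ± 0.61 (SE) for Infertile.

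Smooth muscle markers were set beside COL4A5, COL4A6 and COL12A1, a fibril-associated collagen of dense connective tissue. The summed level of the 8 smooth muscle genes (8 of 8 detected, among them MYH11, ACTA2 and DES) was 847 to 11398 CPM in High-fertile, 579 to 5783 CPM in Sub-fertile and 562 to 23520.2 CPM in Infertile libraries. All 8 had a fold change below 0 for Sub-fertile against High-fertile (median -1.06) and above 0 for Infertile against Sub-fertile (median 1.09). Of all genes, 49.0% and 54.7% lay on these sides. For Infertile against High-fertile 5 were above 0 and 3 below. In these comparisons 0 of the 8 were at an unadjusted p under 0.05. Infertile replicate 1 held the highest sum and the highest COL4A5, COL4A6 and COL12A1 (912 CPM). Infertile replicate 5 held the lowest sum and the lowest COL4A5 and COL4A6, whereas COL12A1 was lowest in Sub-fertile replicate 3 (104 CPM) and Infertile replicate 4 (107 CPM). Infertile replicate 2 lay off this order, with 2398 CPM of smooth muscle genes beside 525 CPM of COL12A1. In these bulk biopsies fewer cells of a type and less RNA per cell cannot be told apart, and the part of muscle content in the collagen values was not tested.

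**Figure D3:**
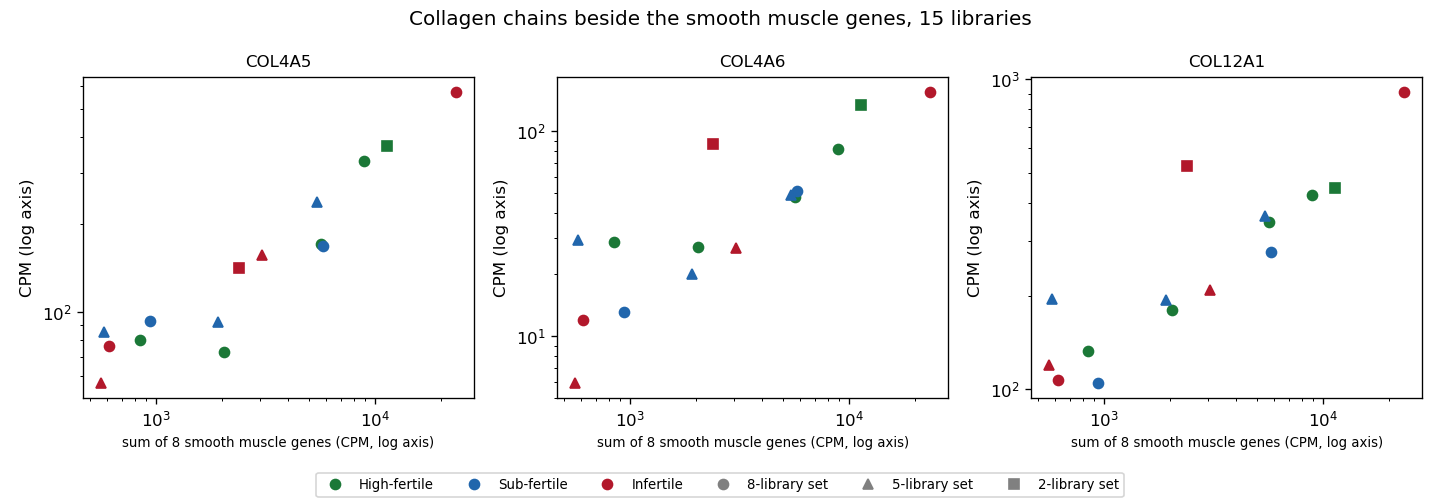
CPM of COL4A5, COL4A6 and COL12A1 against the summed CPM of 8 smooth muscle genes, 1 point per library on log axes, coloured by class and shaped by library set. Infertile replicate 1, at 23520.2 CPM of smooth muscle genes, is at the upper right in all 3 panels.

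Type VI collagen, the beaded filament around stromal cells and vessels, had COL6A1 at 1959.8, 1609.9, 2087, 1765 and 2222 CPM in High-fertile, 1238, 1051, 1070.1, 1443 and 859.6 CPM in Sub-fertile and 1793, 2109.8, 858, 1648 and 544 CPM in Infertile libraries. All 5 Sub-fertile values were under the lowest High-fertile value, and the Infertile libraries spanned both. The fold change was -0.77 ± 0.29 (SE; unadjusted p = 0.0195, edgeR adjusted p = 0.360) for Sub-fertile, and -0.47 ± 0.29 (SE) for Infertile against High-fertile. COL6A2, which assembles with COL6A1, was at 1261 ± 203, 818 ± 178 and 938 ± 433 CPM (mean ± SD, n = 5), with Sub-fertile replicate 4 as the 1 library of its class within the High-fertile range. Its fold change for Sub-fertile against High-fertile was -0.62 ± 0.29 (SE; unadjusted p = 0.0485, edgeR adjusted p = 0.360). COL6A3, the longest chain of the trimer, did not share this order, since Sub-fertile replicate 1 (1372 CPM) exceeded all High-fertile libraries, and its fold change was -0.26 ± 0.48 (SE). With the set as a covariate, the 10 fixed chains of types I, III, IV, V and VI lay between -0.23 and 0.19 for Sub-fertile against High-fertile. COL6A1 and COL6A2 were among them, so both differences were smaller in size there. In the largest library set alone these chains lay between -0.76 and -0.34, with COL6A1 at -0.62.

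COL18A1, of vascular and epithelial basement membrane zones, had the smallest p of the members for Sub-fertile against High-fertile. It was at 649, 638, 753, 694 and 1197 CPM in High-fertile, 251, 214, 364, 600.5 and 213 CPM in Sub-fertile and 535, 405, 199, 597 and 155 CPM in Infertile libraries. The lowest High-fertile library, at 638 CPM, was above all 10 others, of which the highest were Sub-fertile replicate 4 and Infertile replicate 4, and High-fertile replicate 5 stood apart at the top. The fold change was -1.26 ± 0.39 (SE; unadjusted p = 0.00535, edgeR adjusted p = 0.360) for Sub-fertile and -1.06 ± 0.38 (SE; unadjusted p = 0.0151, edgeR adjusted p = 0.435) for Infertile against High-fertile. COL18A1 was the 1 of 42 members (2.38%) with ranges apart for Infertile against High-fertile, beside 2.22% of all genes. With the set as a covariate the values were -0.60 and -0.68, in the 8-library set alone -0.78 and -0.55, and without High-fertile replicate 5 they were -1.06 and -0.85.

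Markers of endothelium were set beside COL18A1. The 6 endothelial genes, all detected, summed to 506 to 994 CPM in High-fertile, 357 to 687 CPM in Sub-fertile and 367 to 641 CPM in Infertile libraries. All 6 had a fold change below 0 in both comparisons against High-fertile, 3 of them at an unadjusted p under 0.05 for Sub-fertile and 4 for Infertile, and none was called. Of all genes, 49.0% and 46.5% were below 0 and 13.7% and 11.0% at that p in these comparisons. TIE1, a receptor kinase of endothelium, was at 41.6 ± 11.0 CPM in High-fertile, 29.1 ± 5.40 CPM in Sub-fertile and 28.2 ± 8.97 CPM in Infertile heifers (SD, n = 5 each). ENG, the endothelial co-receptor endoglin, was at 109.6 ± 38.7, 69.3 ± 22.9 and 72.2 ± 24.0 CPM in the same order. All 3 pericyte genes and all 5 leukocyte genes were also below 0 for Sub-fertile against High-fertile, with summed levels of 305 to 561 and 61.5 to 95.9 CPM in High-fertile and of 256 to 408 and 49.7 to 66.6 CPM in Sub-fertile libraries. So were all 8 smooth muscle genes, 5 of 6 stromal genes and 3 of 5 epithelial genes. Of the pericyte, leukocyte and stromal genes, 1, 3 and 1 were lower at an unadjusted p under 0.05. For Infertile against High-fertile, all 5 leukocyte genes (2 at that p), all 6 stromal genes and 2 of 3 pericyte genes were below 0. The same held for 3 of 8 smooth muscle genes and 1 of 5 epithelial genes. The part of vessel or blood cell content in the COL18A1 values was not tested.

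**Figure D4:**
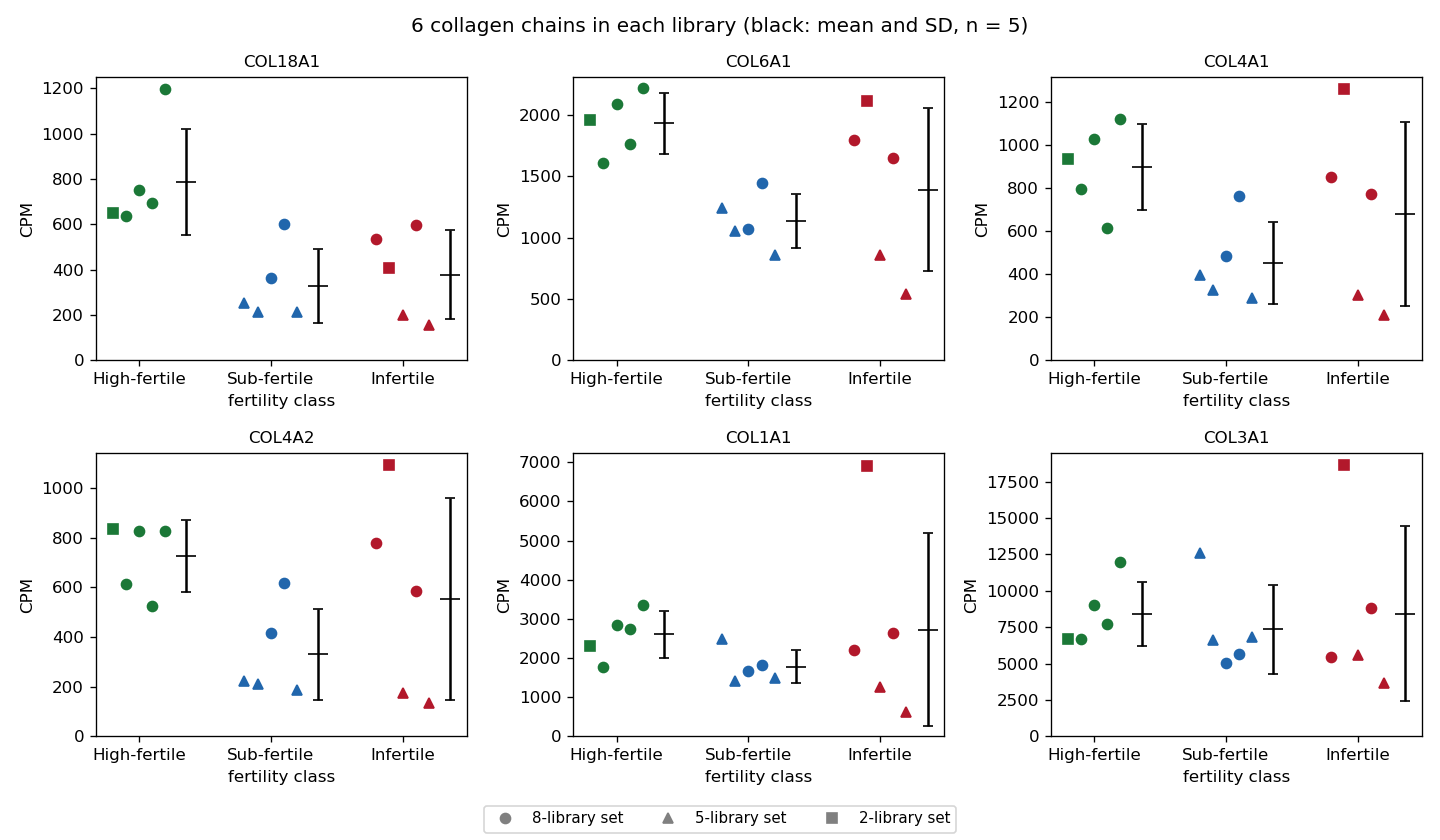
CPM of 6 collagen chains in each library by fertility class, shaped by library set, with the class mean and SD (n = 5) in black. COL18A1 and COL6A1 are lower in all 5 Sub-fertile than in all 5 High-fertile libraries, and COL1A1 and COL3A1 have their highest value in Infertile replicate 2.

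COL16A1, a fibril-associated collagen, and COL26A1, of reproductive tissues, completed the members with all Sub-fertile below all High-fertile libraries. COL16A1 was at 222 ± 41.9, 124 ± 32.6 and 192 ± 195 CPM (mean ± SD, n = 5) in High-fertile, Sub-fertile and Infertile heifers, a fold change of -0.84 ± 0.51 (SE) for Sub-fertile. COL26A1 was at 24.1, 45.2, 22.8, 27.4 and 37.3 CPM in High-fertile, 19.4, 12.6, 16.6, 10.9 and 7.74 CPM in Sub-fertile and 9.70, 116, 13.7, 21.5 and 2.96 CPM in Infertile libraries, with a fold change of -1.22 ± 0.69 (SE) for Sub-fertile. Both were highest of all in Infertile replicate 2. COL7A1, the anchoring fibril under epithelium, was at 239 ± 37.4, 134 ± 73.9 and 155 ± 111 CPM, and COL9A3, a type IX chain, had the smallest p of the members for Infertile against High-fertile, at -1.51 ± 0.54 (SE; unadjusted p = 0.0145, edgeR adjusted p = 0.435). Without High-fertile replicate 4 this value was -0.88. High-fertile replicates 3 and 4 (54.8 and 97.1 CPM) exceeded all other libraries for COL9A3, and the other 3 High-fertile libraries lay within the range of the other classes.

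Between Infertile and High-fertile endometrium the lean of the members depended on the test and on single libraries. The fitted fold change was below 0 for 24 of 42 members, beside 46.5% of all genes, with a median of -0.22 against 0.04 over all genes. Fibrillar chains were evenly placed (5 of 11 below 0, median 0.00), basement membrane chains were below 0 in 6 of 6 (median -0.40) and other types in 13 of 25 (median -0.21). At an unadjusted p under 0.05 were 6 members (14.3%), 4 lower and 2 higher, beside 11.0% of all genes (3.89% lower and 7.14% higher). COL18A1 alone had ranges apart, lower, beside 1.1% of all genes in that direction. Single heifers moved this result in opposite directions. Without Infertile replicate 2 the median was -0.58 with 7 of 42 members above 0. Without Infertile replicate 5 it was -0.00 with 21 of 42 above 0. By limma-voom 4 of 42 members were above 0, with a median of -0.49 against -0.01 over all genes, and without the 2-library set 9 were above 0, with a median of -0.66. The median was -0.16 with the library set as a covariate and -0.22 in the 8-library set alone. At an unadjusted p under 0.05 were 8 members without Infertile replicate 2 (16.2% of all genes), 3 with the covariate (7.66%) and 2 in the 8-library set (4.39%).

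Between Infertile and Sub-fertile endometrium, 29 of 42 members were above 0, beside 54.7% of all genes, with a median of 0.22 against 0.03 over all genes. At an unadjusted p under 0.05 were 2 members (4.76%), COL17A1 and COL6A5, both higher, beside 2.63% of all genes (1.91% higher), and no member had ranges apart, beside 0.205% of all genes. COL17A1 was at 0.209, 9.53, 0.181, 0.156 and 0.230 CPM in Infertile libraries, and no other library passed 0.397 CPM. COL6A5, a type VI chain of skin and gut in humans, was at 1.45, 15.7, 2.40, 0.545 and 0.690 CPM in Infertile libraries and at most 1.75 CPM in the other classes. Both differences therefore came from Infertile replicate 2. Without it the fold changes were 0.38 for COL17A1 and 0.20 for COL6A5, against 3.78 and 1.91 with it. At an unadjusted p under 0.05 there were then 0 members (1.56% of all genes), as without the 2-library set (1.52%) or with only the 10 compared libraries (1.58%), while 9 were found without Infertile replicate 5 (4.96%). With the set as a covariate (1.75%) the 1 member at that p was COL25A1, lower in Infertile heifers (-0.72, unadjusted p = 0.0402, edgeR adjusted p = 1.00), while COL17A1 had 0.85 and COL6A5 0.57.

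COL8A1, a short-chain network collagen of vessels, was at 2.34 to 14.3 CPM and COL23A1, a transmembrane collagen, at 11.1 to 41.2 CPM over all libraries, with overlapping classes. The remaining members named for Infertile against Sub-fertile were COL13A1, COL25A1 and COL26A1. COL13A1, a transmembrane collagen of cell contacts, was at 14.1 ± 5.19 CPM in Sub-fertile and 26.0 ± 17.4 CPM in Infertile heifers (mean ± SD, n = 5), a fold change of 0.88 ± 0.47 (SE). COL25A1 was at 2.73 ± 0.970 and 1.79 ± 0.296 CPM, a fold change of -0.61 ± 0.33 (SE). COL26A1 had a fold change of 1.29 ± 0.69 (SE), which was -0.17 without Infertile replicate 2. Of the 10 chains of types I, III, IV alpha1 and alpha2, V alpha1 and alpha2, and VI, all 10 were above 0 for Infertile against Sub-fertile, at 0.20 to 0.74, while 4 of 10 were above 0 without Infertile replicate 2.

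Chains that share a molecule or a fibril, taken as 5 pairs, followed each other across the 15 libraries on the log2 CPM scale. No other pair was correlated, so whether partner chains follow each other more closely than other chains was not tested. The permutations over 15 libraries took no account of class or library set. COL4A1 and COL4A2, which lie next to each other in the bovine RefSeq annotation (ARS-UCD2.0), had a Pearson r of 0.989 (Spearman rho 0.975). COL6A1 and COL6A2, also neighbours there, had an r of 0.971 (rho 0.932). COL1A1 had an r of 0.919 (rho 0.864) with COL1A2 and of 0.882 (rho 0.821) with COL3A1, and COL5A1 had an r of 0.711 (rho 0.661) with COL5A2. In two-sided permutation tests with 100000 resamples, adjusted over the 5 pairs, p was 1.67e-05, 1.67e-05, 1.67e-05, 3.75e-05 and 0.00419 for Pearson's r and 2.5e-05, 2.5e-05, 0.000133, 0.0004 and 0.00894 for Spearman's rho, in the order given; the smallest unadjusted p that the resamples can give is 1e-05.

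Without the 2 libraries farthest from the median of the first chain of each pair, r was 0.983, 0.939, 0.762, 0.712 and 0.666. Infertile replicate 5 was among the 2 libraries left out for every pair. In the 8-library set alone the same r values were 0.965, 0.859, 0.929, 0.894 and 0.699, with exact permutation p adjusted over the pairs of 0.000868, 0.012, 0.0074, 0.0074 and 0.0569 (n = 8). The type V pair did not pass 0.05 there.

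Some ratios between collagen chains did not overlap between the library sets. The FPKM ratio of COL1A2 to COL1A1 was 2.35 to 3.08 in the 5-library set, 1.44 to 1.91 in the 8-library set and 1.60 to 1.84 in the 2-library set. COL3A1 to COL1A1 was 4.93 to 6.40 in the 5-library set and 2.72 to 4.16 in the 8-library set, and COL4A1 to COL4A2 was 1.56 to 1.80 and 1.11 to 1.38. COL5A1 to COL5A2 was 0.660 to 1.14 in the 5-library set and 1.31 to 2.59 in the 8-library set, and COL18A1 to COL15A1, the other chain of the multiplexin group, was 0.849 to 1.09 and 1.24 to 3.66. Of 11 ratios computed, these 5 did not overlap between the sets, beside 23.3% of all single genes by CPM, and no such share was computed for other gene pairs. The other 6, all between chains of 1 collagen type and with COL6A1 to COL6A2 among them (1.73 to 1.94 and 1.67 to 2.39), overlapped.

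The same ratios overlapped between fertility classes. COL1A2 to COL1A1 was 1.62 to 1.91 in High-fertile, 1.81 to 2.80 in Sub-fertile and 1.44 to 3.08 in Infertile heifers. In the Sub-fertile and Infertile libraries outside the 5-library set it was 1.44 to 1.87, against the High-fertile range of 1.62 to 1.91. Whether the sets reflect how the libraries were made or the animals themselves cannot be told apart here.

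**Figure D5:**
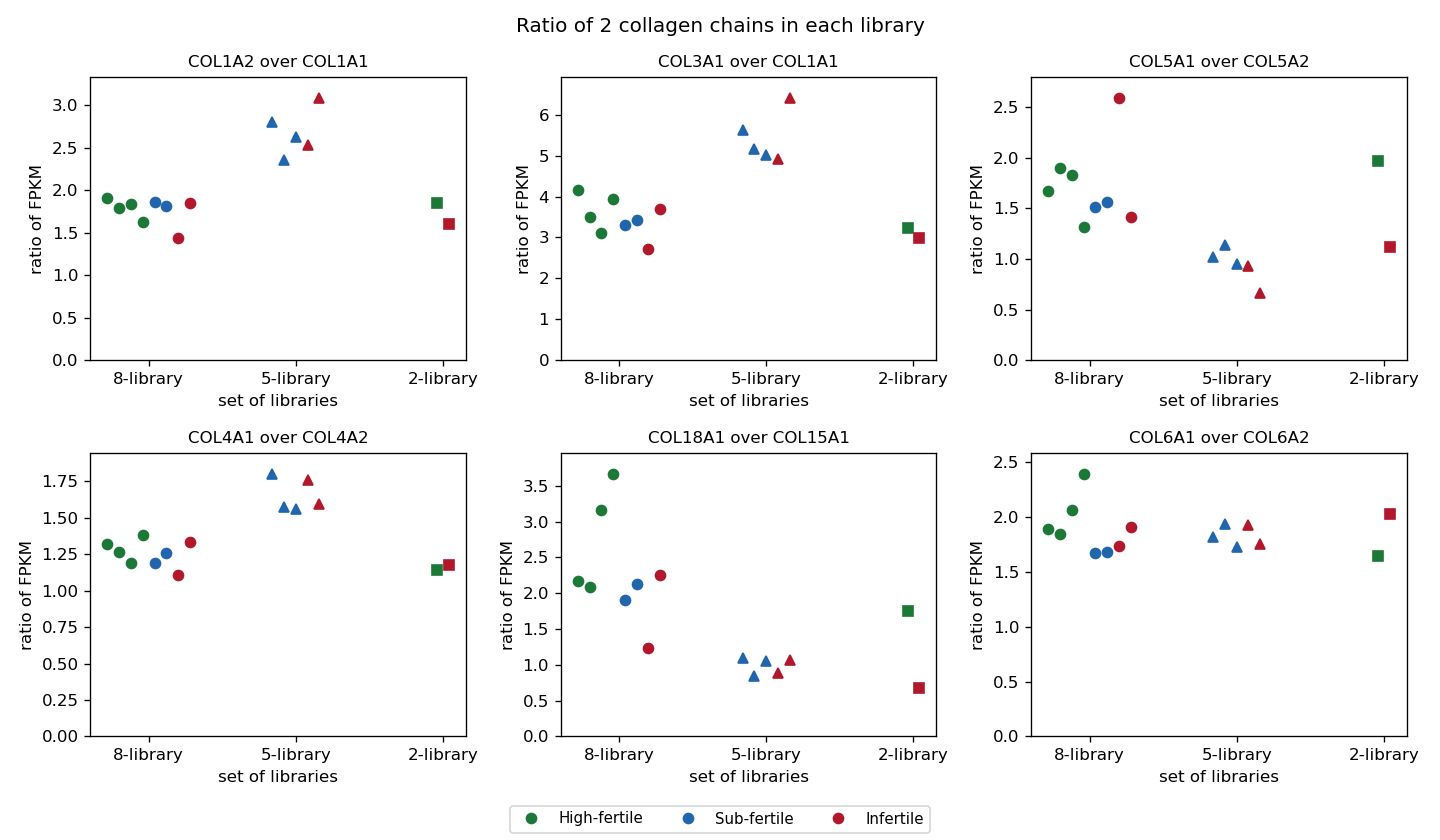
Ratio of deposited FPKM of 2 collagen chains in each library, by library set and coloured by fertility class. In the first 5 panels the 5-library and 8-library sets do not overlap (COL1A2 over COL1A1 is 2.35 to 3.08 against 1.44 to 1.91), and in the sixth, COL6A1 over COL6A2, they do.

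The enzymes and partners of collagen were followed as 7 lists, none of which had a called member in any comparison. Of 15 tested enzymes that hydroxylate or glycosylate collagen, 13 had a fold change below 0 for Sub-fertile against High-fertile (49.0% of all genes), 3 at an unadjusted p under 0.05 (13.7% of all genes, 7.14% lower), with a median of -0.30 against 0.01 over all genes. Their summed level was 1123 to 1403 CPM in the 5-library set and 1428 to 1785 CPM in the 8-library set, without overlap. Class and set can therefore not be fully told apart for this list. The sums of the other lists overlapped between these sets. LEPREL2, a prolyl 3-hydroxylase, was at 57.9 ± 6.91 CPM in High-fertile and 29.4 ± 9.22 CPM in Sub-fertile heifers. Its ranges did not overlap (48.5 to 66.3 and 18.6 to 42.8 CPM), as in 5.07% of all genes in either direction and 2.81% in this direction. COLGALT2, a collagen galactosyltransferase, was at 23.0 ± 3.90, 17.3 ± 4.17 and 15.1 ± 2.43 CPM in the 3 classes, a fold change of -0.60 for Infertile against High-fertile. The 8 chaperone and export genes had 3 below 0 and 5 above 0, with a median of 0.10, beside 49.0% of all genes below 0. At an unadjusted p under 0.05 was 1, lower (13.7% of all genes, 7.14% lower). It was SEC13, a coat protein of export vesicles, at 63.5 ± 5.67 CPM in High-fertile and 47.3 ± 9.24 CPM in Sub-fertile heifers. FKBP10, a collagen prolyl isomerase, was at 56.1 ± 10.8 and 32.5 ± 8.37 CPM.

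Outside the cell, 6 of 8 procollagen proteases and 4 of 5 cross-linking enzymes were below 0 for Sub-fertile against High-fertile, with 1 and 0 at an unadjusted p under 0.05, beside 49.0% and 13.7% of all genes. ADAMTS3, an amino-propeptidase of type II procollagen, was at 3.48 ± 1.34 CPM in High-fertile and 2.06 ± 0.671 CPM in Sub-fertile heifers. For Infertile against Sub-fertile, the propeptidase ADAMTS14 and the lysyl oxidase-like enzymes LOXL1 and LOXL4 were at an unadjusted p under 0.05 (2.63% of all genes), at fold changes of 1.36, 1.01 and 1.21. ADAMTS14 (26.7 CPM) and LOXL1 (123.5 CPM) had their highest value of all libraries in Infertile replicate 2, the library with the most fibrillar collagen.

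Of 16 genes whose proteins bind collagen fibrils, 12 were below 0 for Sub-fertile against High-fertile (49.0% of all genes). At an unadjusted p under 0.05 were 2, both lower, beside 13.7% of all genes in either direction and 7.14% lower. BGN, the small proteoglycan biglycan, was at 145 ± 36.3 CPM in High-fertile, 82.9 ± 18.0 CPM in Sub-fertile and 85.2 ± 31.8 CPM in Infertile heifers. Its Sub-fertile range (67.3 to 106 CPM) lay below its High-fertile range (114 to 207 CPM). Ranges lay apart in 5.07% of all genes in either direction and in 2.81% in this direction. TNXB, the matrix glycoprotein tenascin X, was at 308 ± 44.3 and 147 ± 61.9 CPM in High-fertile and Sub-fertile heifers. Of 10 tested collagen receptors 6 were below 0, with 2 lower and 1 higher at an unadjusted p under 0.05 (49.0% and 13.7% of all genes), the lower ones being LAIR1, an inhibitory receptor of leukocytes (5.47 ± 1.60 against 3.60 ± 1.06 CPM), and ITGA10, an integrin chain for collagen (34.1 ± 8.46 against 23.8 ± 4.44 CPM). Of 8 collagen-degrading enzymes listed, 4 passed the filter on low counts and none of these was at an unadjusted p under 0.05. CTSK, the collagenolytic protease cathepsin K, had its highest level, 405 CPM, in Infertile replicate 2, above the 59.5 to 116 CPM of the High-fertile and Sub-fertile libraries, and FAP, a fibroblast protease, was at 72.8 ± 14.7, 98.7 ± 53.5 and 71.7 ± 16.5 CPM.

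Entries outside the naming rule may share reads with members, and how the authors treated such reads is not stated in the labels. COL5A1-2 held 25109 counts in all, 7.16% of the COL5A1 counts, and COL27A1-2 held 6921, or 10.2% of those of COL27A1, so the levels of both genes are uncertain to that extent. An entry described as the alpha-4(VI) chain held 18256 counts, at 40.7 ± 6.98 CPM in High-fertile, 18.0 ± 15.3 CPM in Sub-fertile and 20.2 ± 23.2 CPM in Infertile heifers.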

How the data were processed

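Bulk polyA RNA from 15 biopsies was sequenced after stranded library preparation, per the labels' protocols. The authors deposited raw counts per gene and FPKM values in 1 table. The submitters' processing notes name FastQC, Subread, featureCounts, edgeR and the genome build UMD 3.1, without tool versions. The deposited FPKM were scaled by the deposited total counts to within 0.382%.

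Counts were filtered with filterByExpr (19962 of 32671 entries kept), scaled by TMM and tested with edgeR 4.0.16 (quasi-likelihood F test, all 15 libraries, 12 residual degrees of freedom, Benjamini-Hochberg adjustment, threshold 0.05) in R 4.3.3. DESeq2 1.42.0 and limma 3.58.1 (voom) were alternatives, beside other scalings, filters and library subsets. Log2 CPM used a prior count of 2. The fit was tested on simulated data of 19962 genes. Library sets came from average-linkage clustering on 362 pseudogene and rRNA genes, cut into 3 sets, a number that was imposed. Depth was 38017136 to 62858724 counts per library, and limits from 3 counts cover counting error only.

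Named members were 10 fixed chains, the 5 with the smallest p in each pairwise comparison and the most abundant of each structural group; 2 genes were named from each other list, by their smallest p over all classes. Other members are described where groups did not overlap or cell markers were set beside them, after their values were seen. The members and lists were chosen with earlier results of these data known. All 43 symbols matched the RefSeq table (ARS-UCD2.0), used for gene order only.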

Additional observations from a re-analysis of the deposited data

Results flagged for a closer look

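In 20 of 126 groups of 5 libraries examined (42 members in 3 classes), 1 library stood above the other 4 of its class by Dixon's criterion (limit 0.71). For normally distributed, independent values with either end counted, this limit gives about 1 in 20 groups, or 6.3 of 126. The values here were CPM, the libraries flagged were all high ones, and the members are not independent of each other. The 20 groups can therefore not be read as an excess over 6.3.

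Sub-fertile replicate 1 stood apart in 6 of these groups, at 12610 CPM for COL3A1, 5563 CPM for COL1A2, 528.7 CPM for COL5A2, 108.5 CPM for COL27A1, 12.87 CPM for COL2A1, the chain of cartilage collagen, and 3.003 CPM for COL8A2. Infertile replicate 2 stood apart in 5, at 395.5 CPM for COL27A1, 116.5 CPM for COL26A1, 15.72 CPM for COL6A5, 9.53 CPM for COL17A1 and 2.617 CPM for COL24A1. Infertile replicate 1 stood apart in 4, at 571.4 CPM for COL4A5, 21.43 CPM for COL21A1, 11 CPM for COL11A1 and 0.5865 CPM for COL19A1. High-fertile replicate 5 stood apart at 1197 CPM for COL18A1 and 519.1 CPM for COL5A2. Sub-fertile replicate 3 stood apart at 62.48 CPM for COL4A3 and 41.21 CPM for COL23A1, and Sub-fertile replicate 4 at 3.442 CPM for COL9A2.

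Among 33 groups of FPKM ratios, 1 had a library apart: COL4A5 over COL4A1 was 0.6742 in Sub-fertile replicate 2.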

How the results depend on the processing

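No paired analysis was possible because the labels give no replicate numbers, and numbers in order of deposit pair no animals. No collagen gene was called under any alternative run. Of the values for single chains, 787 kept their direction and 42 reversed. In each case below the cause was not tested.

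Genes called, 0 by the quasi-likelihood test, were 19, 34, 11 and 34 by DESeq2, 13, 8, 8 and 43 by the likelihood ratio test and 0, 1, 1 and 1 by limma-voom for Sub-fertile against High-fertile, Infertile against High-fertile, Infertile against Sub-fertile and any class, and 3 without the 2-library set for the first. Collagen genes at an unadjusted p under 0.05 were 15 with only the 10 libraries compared (23.4% of all genes), 1 with the set as a covariate and 11 in the 8-library set for Sub-fertile against High-fertile (main 6). They were 3 by limma-voom, 3 with the covariate and 2 in the 8-library set for Infertile against High-fertile (main 6). For Infertile against Sub-fertile (main 2) they were 1 with the stricter filter, 0 by limma-voom, 0 with only the 10 libraries, 1 with the covariate and 0 without the 2-library set, which was chosen after seeing the data.

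With the covariate, Sub-fertile against High-fertile reversed for COL1A1 (0.093), COL1A2 (0.070) and COL6A3 (0.19). Infertile against High-fertile reversed under limma-voom, the covariate, the 8-library set and without the 2-library set for COL1A1 (-0.36, -0.041, -0.15 and -0.67), COL1A2 (-0.19, -0.12, -0.24 and -0.52), COL3A1 (-0.21, -0.18, -0.32 and -0.59) and COL5A2 (-0.099, -0.13, -0.28 and -0.48). It also reversed for COL6A3 under limma-voom (-0.21) and without the 2-library set (-0.20), for COL17A1 in the 8-library set (-0.43) and without the 2-library set (-0.34), and for COL6A2 in the 8-library set (0.00024). Infertile against Sub-fertile reversed for COL17A1 in the 8-library set (-0.029) and for COL26A1 with the covariate (-0.020) and without the 2-library set (-0.17). The COL5A1 and COL5A2 correlation in the 8-library set was 0.699 (exact permutation p = 0.0569).

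Leaving out 1 library at a time gave 0 to 3 called genes for Sub-fertile against High-fertile and 0 to 0 for the other comparisons. The 3 were found without High-fertile replicate 1 and also without Infertile replicate 5. Without High-fertile replicate 3 and without Infertile replicate 1 there was 1 each. Collagen genes at an unadjusted p under 0.05 were 2 (without Sub-fertile replicate 2) to 10 (without Infertile replicate 5), 3 (without High-fertile replicate 4) to 8 (without Infertile replicate 2) and 0 (without Infertile replicate 2) to 9 (without Infertile replicate 5) in the 3 comparisons. Their median was -0.63 to -0.45, -0.58 to -0.00 and -0.06 to 0.46. For Sub-fertile against High-fertile COL5A2 ranged from -0.42 to 0.063. For Infertile against High-fertile, COL17A1 ranged from -0.47 to 3.23, COL1A1 from -0.63 to 0.32, COL1A2 from -0.49 to 0.26, COL3A1 from -0.52 to 0.19, COL5A2 from -0.42 to 0.27 and COL6A3 from -0.28 to 0.47. For Infertile against Sub-fertile COL26A1 ranged from -0.17 to 1.59. COL10A1, at 2 to 14 counts per library, was too shallow to be tested.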
